A study of Leucoraja erinaceus with 6 samples.

Results

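The genes described here encode synaptic adhesion molecules and scaffold proteins of the postsynaptic density, and they were followed in dorsal root ganglia (DRG) and spinal cord of little skate (Leucoraja erinacea) embryos. They were chosen by symbol, as the rows of the count table whose name starts like a neurexin, neuroligin, LRRTM, LRFN, SLITRK, contactin, contactin-associated protein, DLG, DLGAP, SHANK, HOMER, SYNGAP, NCAM or L1 family, SynCAM, LAR-type phosphatase, FLRT, teneurin, latrophilin or cerebellin gene. A total of 34 of 22087 named genes matched, and all 34 were among the 16112 genes with enough counts to be tested. Of 24 name starts, 4 (l1cam, cadm, ptprd and ptprs) matched no row used here, and relatives that carry only an identifier starting with LOC lie outside the choice. Such identifiers were borne by 7460 of the tested genes.

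DRG, which hold the cell bodies of sensory neurons with their glia, had 3 libraries, and so had spinal cord, called the cord in what follows. Both tissues came from untreated wild-type embryos at stage 32 and were dissected separately, and each library held tissue pooled from 3 to 4 embryos. The labels call the cells of both tissues a mixture of neurons and glia, and they give pool numbers 815, 816 and 818 to replicates 1, 2 and 3 of each tissue. Levels are given as CPM, counts scaled to library size and TMM factors, and the order of values is replicate 1, 2 and 3. In bulk tissue, fewer cells of a type and less RNA per cell cannot be told apart.

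Synapses are held together by pairs of adhesion proteins that meet across the cleft. Neurexins on the axon terminal bind neuroligins, LRRTM proteins and, through secreted cerebellins, further receptors on the receiving cell. Latrophilins bind both teneurins and FLRT proteins. Behind the receiving membrane, DLG, DLGAP, SHANK and HOMER proteins form a layered scaffold that anchors glutamate receptors. Contactins, contactin-associated proteins and the NCAM and L1 families act along the axon as well, in outgrowth, bundling and the contacts between axon and myelinating glia. In jawed vertebrates, DRG neurons send their central axons into the spinal cord, where their synapses lie, and few synapses are known on the cell bodies in the ganglion.

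Library totals over named genes were 25963856 to 26542044 counts in DRG, against 24342810 to 28782887 in the cord. Mitochondrially encoded proteins, 13 genes, took 24.3% to 35.7% of these counts in DRG, against 5.39% to 6.88% in the cord, and TMM factors were 0.657 to 0.834 in DRG, against 1.37 to 1.43 in the cord. Fold changes are DRG over spinal cord. Over all tested genes their median was -0.04 (log2) with TMM and -0.99 when library sizes alone were used, and the share of called genes that were higher in DRG was 49.7% with TMM and 15.5% with library sizes alone. Levels and fold changes below are on the TMM scale, and a scale-free measure is given further on. The tissues carried their defining markers, where 28.1% of all tested genes were called lower in DRG and 27.8% higher. Of 11 sensory neuron genes, 10 were higher in DRG (summed 3383 to 3976 CPM in DRG, against 677 to 794 CPM in the cord). Most of that DRG sum was sncga, at a mean of 2493 CPM in DRG, against 492 CPM in the cord. Of 13 spinal interneuron genes, 12 were lower in DRG (summed 34.1 to 40.5 CPM in DRG, against 1936 to 2064 CPM in the cord), with evx1 and sim1a among those at 0 counts in each DRG library. Connective tissue genes were higher in DRG for 6 of 7 (summed 1545 to 3728 CPM in DRG, against 147 to 182 CPM in the cord). The other, pdgfrb, was lower (log2 fold change -2.82). Most of the connective tissue sum in DRG was col1a2, at a mean of 2083 CPM in DRG, against 100 CPM in the cord. Of 10 neural progenitor and astroglial genes, 9 were lower in DRG (summed 1080 to 3017 CPM in DRG, against 4372 to 4599 CPM in the cord). Most of their DRG sum was fabp7b, the gene not called. It had 1778, 2963 and 1039 CPM in DRG, against 2190, 1707 and 1913 CPM in the cord. The median log2 fold change of the 10 genes was -5.24. Lower in DRG too were 4 of 5 motor neuron genes. The other, isl2a, was higher, at a mean of 68.8 CPM in DRG, against 3.55 CPM in the cord (log2 fold change 4.27). Of 2 muscle genes tested 1 was higher in DRG. Whether such other cells took part in the differences below was not tested.

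Most of the 34 genes were lower in DRG. In edgeR's quasi-likelihood test, 22 were lower in DRG and 6 were higher at a Benjamini-Hochberg adjusted p under 0.05 over all tested genes, and 6 did not pass. Over all tested genes, 55.9% were called, 28.1% lower in DRG and 27.8% higher. With library sizes alone, 28 of the 34 genes were lower in DRG, where 57% of all tested genes were, and 0 were higher (0 at an unadjusted p under 0.05; 10.5% of all tested genes). The median log2 fold change of the 34 genes was -1.23, against -0.04 for all tested genes. Among called genes, a fold change of at least 2 was found for 18 of the 22 lower in DRG and for 4 of the 6 higher. Over all tested genes, that size was reached by 3196 of 4529 genes called lower and by 3101 of 4473 called higher. These made up 19.8% and 19.2% of all tested genes. The libraries of the tissues did not overlap for 23 genes that were lower in DRG, where 34.1% of all tested genes lay apart in that way, and for 7 that were higher in DRG (30.8% of all). Within each of the 3 pools, 23 genes had a lower level in the DRG library than in the spinal cord library, 7 had a higher level, and 4 had mixed signs. Genes whose tissues do not overlap have the same sign in every pool, so these counts repeat the ones before. Their share over all tested genes was not computed. The genes in the set are not all synaptic. The product of adgrl4 is known in mammals from blood vessel endothelium and that of dlgap5 from the mitotic spindle, and without them 21 of 32 genes were lower in DRG and 6 higher.

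**Figure D1:**
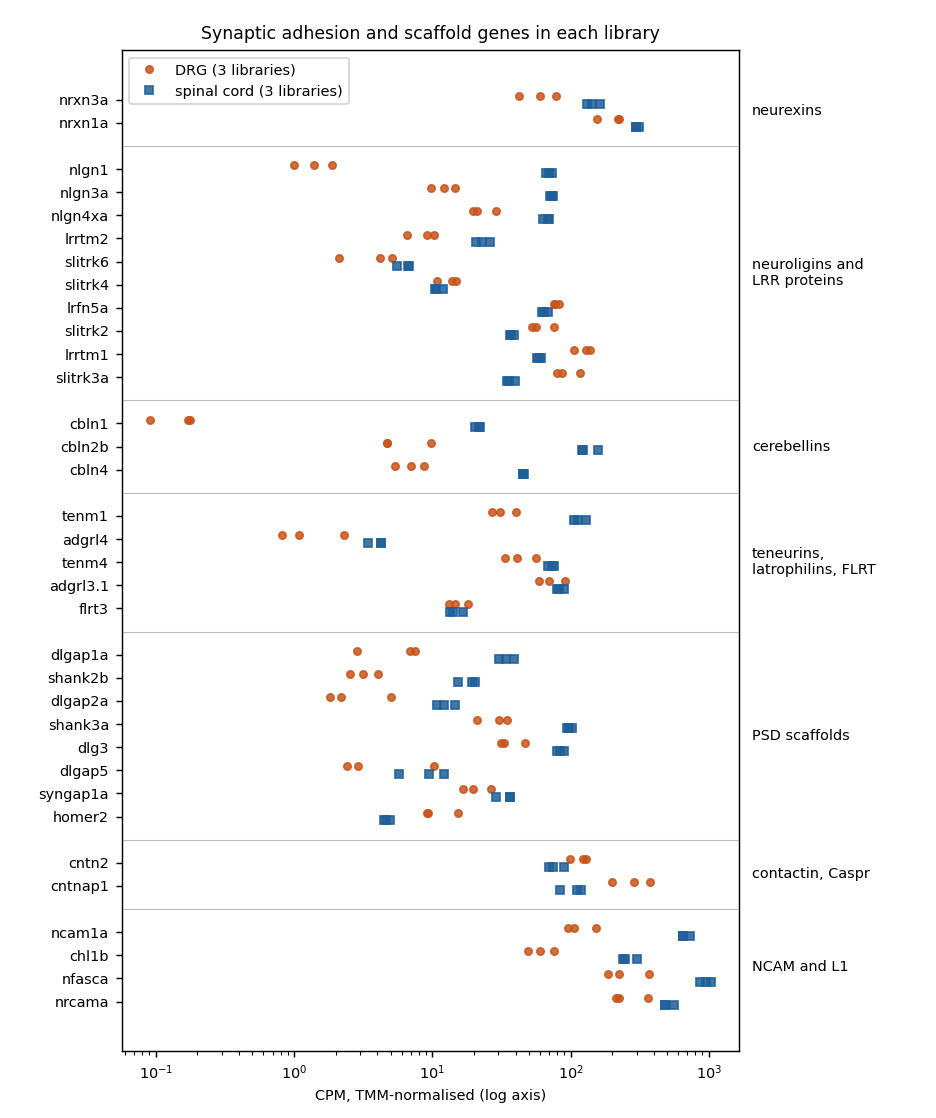
Level of each of the 34 genes in CPM (TMM-normalised, log axis), with 1 point per library, orange circles for DRG and blue squares for spinal cord, grouped by protein family. The widest gaps between tissues are those of cbln1 and nlgn1, with DRG far to the left, while cntnap1, slitrk3a, lrrtm1 and homer2 have their DRG points to the right.

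Neurexins are the adhesion receptors of the axon terminal. Both neurexin genes of the set were lower in DRG, where 28.1% of all tested genes were. The level of nrxn3a was 60.0, 42.6 and 78.4 CPM in DRG, against 131, 164 and 143 CPM in the cord. Its highest DRG library stayed below its lowest spinal cord library, and the log2 fold change was -1.27 ± 0.23 SE (adjusted p = 0.0018 in edgeR's test). For nrxn1a the levels were 225, 155 and 221 CPM in DRG, against 313, 297 and 296 CPM in the cord. The tissues again lay apart, but the difference was smaller, and the log2 fold change was -0.59 ± 0.17 SE (adjusted p = 0.0191). The call of nrxn1a was lost in each fit that lacked a single cord library, replicate 1, 2 or 3 (adjusted p = 0.0618, 0.0572 and 0.0545 in the same test).

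Neuroligins are the neurexin receptors of the receiving cell. All 3 genes of the set were lower in DRG, where 28.1% of all tested genes were, and by very different amounts. The level of nlgn1 was 1.89, 0.997 and 1.40 CPM in DRG, against 73.8, 69.5 and 66.9 CPM in the cord. The log2 fold change was -5.61 ± 0.23 SE (adjusted p = 2.51e-06 in edgeR's test), with the mean of DRG at 2.04% of that of spinal cord. The DRG counts behind it were 33, 17 and 31. The summed level of the spinal interneuron genes in DRG stood at 1.90% of that in spinal cord. Most of that sum was slc6a9, at a mean of 30.4 CPM in DRG, against 1463 CPM in the cord. The log2 fold changes of the 13 spinal interneuron genes ranged from -8.83 to 0.09, with a median of -6.53. Whether carried-over cord tissue took part in the nlgn1 level of DRG was not tested. For nlgn3a the levels were 12.1, 9.85 and 14.6 CPM in DRG, against 74.7, 74.0 and 71.2 CPM in the cord (log2 fold change -2.59 ± 0.17 SE, adjusted p = 1.52e-05). For nlgn4xa the means were 23.1 ± 4.92 CPM in DRG, against 67.2 ± 3.72 CPM in the cord (SD over n = 3 libraries per tissue; log2 fold change -1.54 ± 0.17 SE, adjusted p = 0.000182). Spinal cord libraries held all 3 neuroligins within a narrow spread, and each DRG library lay below them.

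The leucine-rich repeat proteins, which bind neurexins or LAR-type phosphatases from the receiving side in mammals, went in both directions. In the LRRTM pair, lrrtm1 had 106, 128 and 139 CPM in DRG, against 56.9, 60.7 and 59.5 CPM in the cord. Every DRG library was above every spinal cord library (log2 fold change 1.08 ± 0.14 SE, adjusted p = 0.000387 in edgeR's test). Its relative lrrtm2 had 9.15, 10.3 and 6.51 CPM in DRG, against 26.2, 22.9 and 20.6 CPM in the cord. The order of the tissues was the opposite, and the log2 fold change was -1.43 ± 0.21 SE (adjusted p = 0.000691).

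Among the SLITRK genes, named for their likeness to Slit and to Trk receptors, slitrk3a had 87.2, 80.4 and 117 CPM in DRG, against 34.5, 39.8 and 35.8 CPM in the cord (log2 fold change 1.37 ± 0.17 SE, adjusted p = 0.00032 in edgeR's test). The protein is known in mammals as an organiser of inhibitory synapses. The gene slitrk2 was also higher in DRG, at 52.9, 56.2 and 76.5 CPM in DRG, against 36.4, 39.0 and 37.2 CPM in the cord (log2 fold change 0.72 ± 0.17 SE, adjusted p = 0.00671). Its next protein-coding neighbour in the RefSeq gene table is slitrk4, with 13.8, 10.7 and 14.9 CPM in DRG, against 10.7, 12.0 and 10.4 CPM in the cord. There the tissues overlapped, and the difference did not pass (log2 fold change 0.25 ± 0.19 SE, adjusted p = 0.285). Neither slitrk6, with means of 3.80 ± 1.52 CPM in DRG, against 6.32 ± 0.665 CPM in the cord, nor lrfn5a, with 78.4 ± 3.66 CPM in DRG, against 65.0 ± 3.69 CPM in the cord, passed either (SD over n = 3 libraries per tissue; adjusted p = 0.104 and 0.0893). The libraries of the tissues did not overlap for these last 2 genes, lower in DRG for slitrk6 and higher for lrfn5a. Without DRG replicate 2, slitrk6 passed (log2 fold change -1.02, adjusted p = 0.0453 in edgeR's test). It also passed with library sizes alone, or with sizes lacking the mitochondrial protein-coding genes (log2 fold change -1.74 and -1.26). With library sizes alone none of lrrtm1, slitrk3a and slitrk2 passed, and slitrk2 turned negative, at log2 fold changes of 0.13, 0.44 and -0.21. In that setting slitrk4 and lrfn5a passed as lower in DRG (log2 fold change -0.69 and -0.68).

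Cerebellins are secreted linkers between neurexins and receptors of the receiving cell. All 3 cerebellin genes of the set were lower in DRG, where 28.1% of all tested genes were. The level of cbln1 was 0.172, 0.176 and 0.0904 CPM in DRG, against 21.8, 22.1 and 20.3 CPM in the cord. No DRG library held more than 3 counts, so that cbln1 was at least 122-fold lower in DRG, computed against 3 counts in the DRG library where these weigh most (adjusted p = 2.48e-06 in edgeR's test). For cbln2b the levels were 4.69, 9.73 and 4.70 CPM in DRG, against 158, 121 and 123 CPM in the cord (log2 fold change -4.40 ± 0.32 SE, adjusted p = 2.42e-05). The DRG library of pool 816 held the highest of the DRG levels of cbln2b and still lay far below each spinal cord library. The gene cbln4 had 5.38, 8.68 and 6.96 CPM in DRG, against 45.5, 45.7 and 45.1 CPM in the cord (log2 fold change -2.70 ± 0.19 SE, adjusted p = 2.12e-05). Its spinal cord libraries differed by less than 1 CPM.

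Teneurins, large transmembrane proteins that bind latrophilins across the cleft, were lower in DRG for both genes of the set. For tenm1 the levels were 27.2, 31.0 and 40.1 CPM in DRG, against 106, 129 and 114 CPM in the cord (log2 fold change -1.82 ± 0.18 SE, adjusted p = 9.17e-05 in edgeR's test). For tenm4 they were 40.7, 33.8 and 56.0 CPM in DRG, against 73.2, 75.5 and 68.6 CPM in the cord (log2 fold change -0.73 ± 0.19 SE, adjusted p = 0.0121). The tissues lay apart for both. The latrophilin adgrl3.1, of the family that teneurins bind, gave no call. It had 69.6, 58.7 and 90.8 CPM in DRG, against 79.3, 89.0 and 81.9 CPM in the cord. Its libraries overlapped (log2 fold change -0.19 ± 0.18 SE, adjusted p = 0.386 in edgeR's test). Without DRG replicate 3, adgrl3.1 passed as lower in DRG (adjusted p = 0.0412 in the same test, log2 fold change -0.39). It also passed with library sizes alone, or with sizes lacking the mitochondrial protein-coding genes (log2 fold change -1.12 and -0.69). For flrt3, which binds latrophilins in mammals, the means were 15.4 ± 2.58 CPM in DRG, against 14.7 ± 1.81 CPM in the cord (SD over n = 3 libraries per tissue; log2 fold change 0.06 ± 0.19 SE, adjusted p = 0.789). With library sizes alone flrt3 passed as lower in DRG (log2 fold change -0.87). The endothelial relative adgrl4 was low in both tissues, at 1.40 ± 0.784 CPM in DRG, against 3.99 ± 0.479 CPM in the cord (SD over n = 3 libraries per tissue; log2 fold change -1.52 ± 0.44 SE, adjusted p = 0.0186). Its call was lost without DRG replicate 1, spinal cord replicate 1 or spinal cord replicate 3 (adjusted p = 0.0587, 0.0604 and 0.0615 in the same test). Of 8 genes listed for endothelium and blood, 4 were higher in DRG (kdr, ptprc, lmo2 and rhag) and 3 lower (cldn5a, tie1 and spi1b). Over all tested genes, 27.8% were called higher and 28.1% lower. Log2 fold changes in the list ran from -5.97 for cldn5a to 3.16 for rhag. The summed level was 108 to 198 CPM in DRG, against 108 to 137 CPM in the cord. The list joins vessel and blood genes, and vessel genes alone were not summed.

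Of 8 genes named for scaffolds of the postsynaptic density, 6 were lower in DRG, homer2 was higher, and dlgap5 did not pass. Of all tested genes, 28.1% were called lower and 27.8% higher. SHANK proteins are the master scaffolds of excitatory synapses. The gene shank3a had 30.4, 21.0 and 34.9 CPM in DRG, against 93.9, 102 and 97.3 CPM in the cord (log2 fold change -1.76 ± 0.20 SE, adjusted p = 0.000168 in edgeR's test). For shank2b the levels were 3.15, 2.52 and 4.02 CPM in DRG, against 15.3, 20.5 and 19.3 CPM in the cord (log2 fold change -2.50 ± 0.24 SE, adjusted p = 9.04e-05). Both SHANK genes had their lowest level of all 6 libraries in the DRG library of pool 816.

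DLGAP proteins link the DLG layer to SHANK. The gene dlgap1a had 7.49, 2.87 and 6.87 CPM in DRG, against 34.1, 38.8 and 30.3 CPM in the cord (log2 fold change -2.58 ± 0.33 SE, adjusted p = 0.000326 in edgeR's test). For dlgap2a the means were 3.00 ± 1.75 CPM in DRG, against 12.5 ± 1.93 CPM in the cord (SD over n = 3 libraries per tissue; log2 fold change -2.05 ± 0.39 SE), and without DRG replicate 3, its highest DRG library, the log2 fold change was -2.66. The membrane-associated kinase homologue dlg3 had 37.0 ± 8.24 CPM in DRG, against 84.5 ± 4.79 CPM in the cord (SD over n = 3 libraries per tissue; log2 fold change -1.19 ± 0.18 SE). The Ras regulator syngap1a had the smallest difference of the 6, at 19.6, 16.7 and 26.8 CPM in DRG, against 28.7, 36.8 and 36.5 CPM in the cord (log2 fold change -0.69 ± 0.20 SE, adjusted p = 0.0197). The call of syngap1a was lost without DRG replicate 1, spinal cord replicate 2 or spinal cord replicate 3 (adjusted p = 0.0651, 0.0703 and 0.0676 in the same test).

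HOMER proteins couple SHANK to metabotropic glutamate receptors and to calcium stores, and homer2 ran against the other scaffold genes. It had 9.15, 15.4 and 9.36 CPM in DRG, against 4.96, 4.65 and 4.51 CPM in the cord, with each DRG library above each spinal cord library (log2 fold change 1.26 ± 0.26 SE, adjusted p = 0.00412 in edgeR's test). With library sizes alone homer2 did not pass (log2 fold change 0.29, adjusted p = 0.344). The DRG library of pool 816 was the highest for homer2, and among DRG libraries it was the highest for 35.8% of all tested genes. The same library was the highest in DRG for all 7 connective tissue genes and for 9 of 10 genes of myelinating glia. That held too for 5 of 8 genes of endothelium and blood and 5 of 10 of neural progenitors and astroglia, but for 1 of 11 sensory neuron genes. What these cells gave to the homer2 level was not tested, and without DRG replicate 2 the call of homer2 was kept. The mitotic gene dlgap5 had 2.40, 10.3 and 2.89 CPM in DRG, against 5.73, 9.44 and 12.1 CPM in the cord. Its high DRG library was again that of pool 816, and the tissues overlapped (log2 fold change -0.81 ± 0.56 SE, adjusted p = 0.252 in edgeR's test). Without that library dlgap5 passed, at a lower level in DRG (log2 value -1.79, adjusted p = 0.00733 in the same test). It also passed as lower with library sizes alone (log2 fold change -1.83).

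Along the axon, the contactin-associated protein gene and the contactin gene of the set were higher in DRG, where 27.8% of all tested genes were. The product of cntnap1 (Caspr) holds the axon to the myelin loops beside the node of Ranvier. Its level was 289, 198 and 373 CPM in DRG, against 83.9, 119 and 111 CPM in the cord (log2 fold change 1.46 ± 0.25 SE, adjusted p = 0.00155 in edgeR's test). It was the largest increase in DRG among the 34 genes, with the tissues apart, and it did not pass with library sizes alone (log2 fold change 0.53, adjusted p = 0.158). The product of cntn2 (TAG-1) sits beside the paranode and guides early axons, and the gene had 122, 99.6 and 130 CPM in DRG, against 74.1, 89.4 and 69.5 CPM in the cord (log2 fold change 0.60 ± 0.16 SE, adjusted p = 0.0137). The call of cntn2 was lost without DRG replicate 1, spinal cord replicate 1 or spinal cord replicate 3 (adjusted p = 0.0506, 0.0562 and 0.0687), and its direction turned with library sizes alone (log2 fold change -0.34).

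The NCAM and L1 family genes of the set, by contrast, were all lower in DRG, where 28.1% of all tested genes were. For ncam1a, the classic neural cell adhesion molecule, the levels were 106, 95.6 and 152 CPM in DRG, against 651, 737 and 650.0 CPM in the cord (log2 fold change -2.52 ± 0.21 SE, adjusted p = 4.24e-05 in edgeR's test). For chl1b, a close relative of L1 in outgrowing axons, they were 60.2, 49.3 and 75.4 CPM in DRG, against 301, 239.7 and 249 CPM in the cord (log2 fold change -2.09 ± 0.19 SE, adjusted p = 7.13e-05). The tissues lay far apart for both genes.

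Neurofascin has a neuronal form at nodes and axon initial segments and a glial form at the paranode, and the table counts nfasca as a whole. It had 223, 185 and 368 CPM in DRG, against 857, 1044 and 952 CPM in the cord (log2 fold change -1.88 ± 0.27 SE, adjusted p = 0.000569 in edgeR's test). Of 10 genes of myelinating glia, 5 were higher and 5 lower in DRG, at log2 fold changes from -6.56 to 4.47. Of all tested genes, 27.8% were called higher and 28.1% lower. The summed level of the 10 genes was 6767 to 11476 CPM in DRG, against 36011 to 44623 CPM in the cord. Most of the cord sum was 1 gene, mpz, at a mean of 31499 CPM in the cord, against 2644 CPM in DRG. The part of myelinating glia in the nfasca difference was not tested. The gene nrcama, whose product is found at nodes too, had 224, 213 and 362 CPM in DRG, against 481, 562 and 479.6 CPM in the cord (log2 fold change -0.93 ± 0.23 SE, adjusted p = 0.00836). Its difference ranged from -0.41 in pool 818 to -1.40 in pool 816 on the log2 scale, with the same sign in all 3 pools.

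**Figure D2:**
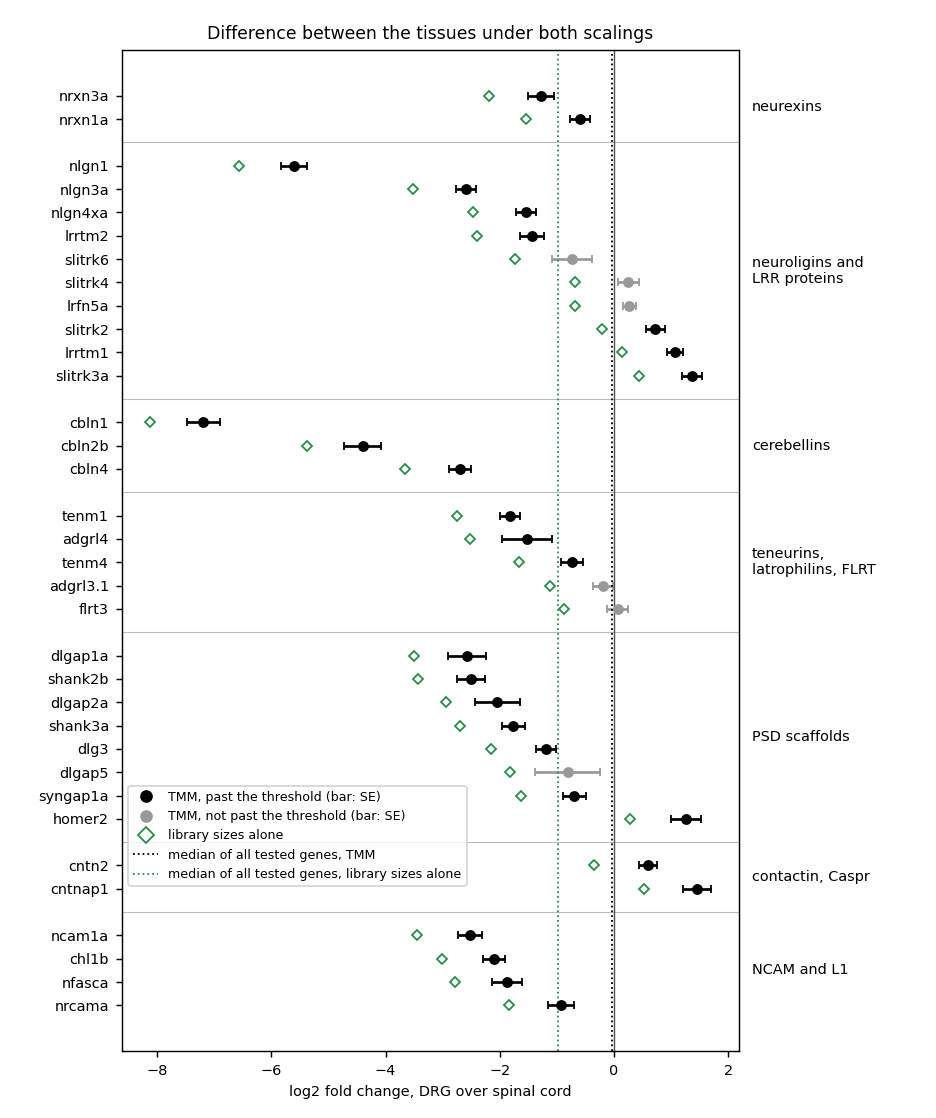
Log2 fold change of each gene, DRG over spinal cord: filled circles with SE bars are on the TMM scale (black past the threshold, grey not), open green diamonds use library sizes alone, and dotted lines are the medians of all tested genes at -0.04 and -0.99. The whole pattern shifts to the left with library sizes alone for every gene; the point of cbln1 is a fitted value and no bound.

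The order of the genes can be read without any scaling from count ratios within a library. A ratio between genes also depends on transcript length, so its size carries no level; only its difference between tissues is read, and isoform use is taken as alike. For 15 gene pairs, chosen with their values known and therefore not tested, the ratios did not overlap between the tissues in 14. Non-overlapping ratios were frequent in any case, at 63.4% of all pairs among the 15568 tested genes with a count in every library, and at 77.7% of the 561 pairs among the 34 genes. The ratio of nlgn1 to nlgn3a counts was 0.156, 0.101 and 0.0963 in DRG, against 0.987, 0.940 and 0.940 in the cord. The ratio of nlgn4xa to nlgn3a, by contrast, was higher in DRG, at 1.62, 2.14 and 1.98 in DRG, against 0.844, 0.923 and 0.986 in the cord. Relative to nlgn3a, then, nlgn1 was lower and nlgn4xa higher in every DRG library than in every cord library.

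Ratios within other families were compared in the same way. For lrrtm2 over lrrtm1 the count ratio was 0.0860, 0.0799 and 0.0470 in DRG, against 0.460, 0.378 and 0.346 in the cord. The ratio of cbln2b to cbln4 was 0.872, 1.12 and 0.675 in DRG, against 3.47, 2.65 and 2.74 in the cord. For tenm1 over tenm4 it was 0.669, 0.918 and 0.717 in DRG, against 1.46, 1.71 and 1.66 in the cord. In each of these 3 pairs every DRG library was below every spinal cord library. The ratio of slitrk3a to slitrk4 ran the other way, at 6.33, 7.50 and 7.87 in DRG, against 3.22, 3.33 and 3.43 in the cord.

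Between families, 3 pairs were compared. The ratio of cntnap1 to nfasca counts was 1.30, 1.07 and 1.01 in DRG, against 0.0979, 0.114 and 0.116 in the cord. The genes cntn2 and nfasca are next neighbours among protein-coding genes of the RefSeq table, and their count ratio was 0.549, 0.538 and 0.354 in DRG, against 0.0865, 0.0857 and 0.0730 in the cord. For homer2 over shank3a it was 0.301, 0.735 and 0.268 in DRG, against 0.0529, 0.0458 and 0.0463 in the cord. The pair of dlgap1a and dlgap2a was the exception, with overlapping ratios of 3.45, 1.58 and 1.37 in DRG, against 3.15, 2.65 and 2.49 in the cord.

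**Figure D3:**
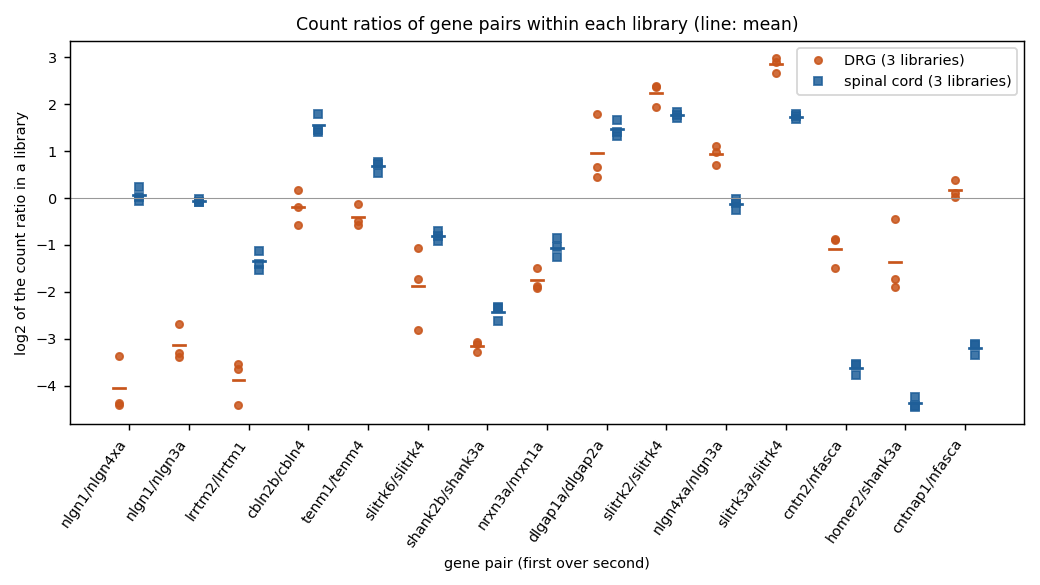
Log2 of the count ratio of 15 gene pairs within each library (first gene over second), orange circles for DRG and blue squares for spinal cord, lines for the mean of 3 libraries, ordered by the difference between the tissues. The ratios do not depend on library scaling; DRG lies lowest against spinal cord for nlgn1/nlgn4xa and highest for cntnap1/nfasca.

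The 34 genes varied more between DRG pools than between spinal cord pools. Their median coefficient of variation was 24.2% in DRG, against 8.42% in the cord. Over all tested genes it was 24.3% in DRG, against 12.7% in the cord. It was larger in DRG for 33 of the 34 genes and for 76.6% of all tested genes. The DRG library of pool 818 held the highest DRG level for 22 of the 34 genes (64.7%, against 37.2% of all tested genes), and that of pool 816 the lowest for 20 (58.8%, against 36.2% of all tested genes). The median deviation from the mean of the DRG libraries, on the log2(CPM + 0.1) scale, was -0.06, -0.25 and 0.29 in pools 815, 816 and 818. Connective tissue genes deviated by medians of 0.07, 0.46 and -0.46 in the same pools, and the genes of sensory neurons by -0.03, -0.12 and 0.10. Whether the mix of cells in these pools set the levels of the 34 genes was not tested.

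**Figure D4:**
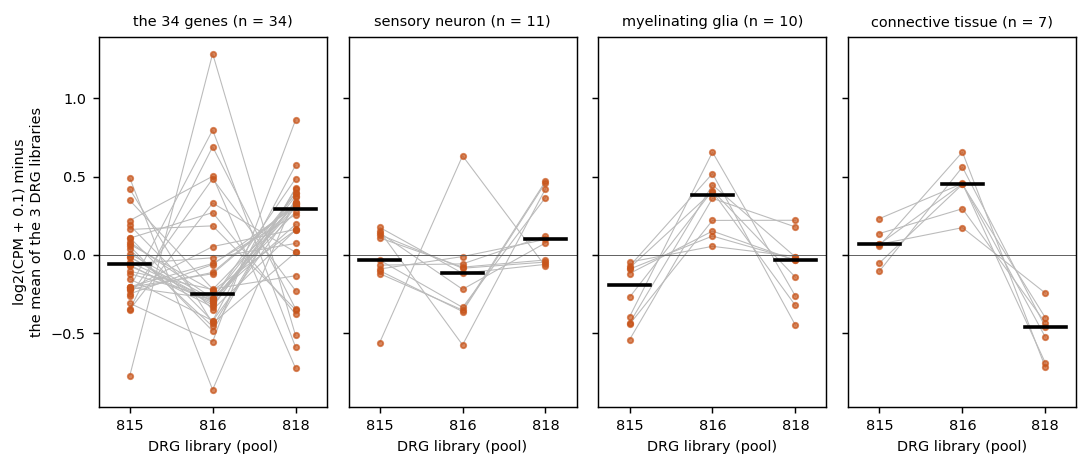
Deviation of each gene in each DRG library from its mean over the 3 DRG libraries, on the log2(CPM + 0.1) scale, for the 34 genes and for 3 marker lists; each point is a gene, grey lines join a gene across pools and black bars are medians. The median of the 34 genes stands highest in pool 818 and lowest in pool 816, that of connective tissue genes the reverse, and single genes of the 34 depart from this order.

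Pan-neuronal genes went in both directions. Of 7 pan-neuronal genes, 4 were higher in DRG and 2 lower. Their summed level was 20462 to 22472 CPM in DRG, against 3858 to 4222 CPM in the cord. Most of the DRG sum was neflb, at 12263, 13772.5 and 13167 CPM in DRG, against 1896, 2269 and 2551 CPM in the cord. Log2 fold changes lay between -3.87 for syt1a, the calcium sensor of transmitter release, and 4.66 for uchl1, an abundant neuronal ubiquitin hydrolase. The level of syt1a was 2.97, 2.64 and 3.66 CPM in DRG, against 46.8, 47.4 and 42.5 CPM in the cord. Of 46 further postsynaptic scaffold and linker symbols, 26 matched tested genes, with a median log2 fold change of -1.17. In edgeR's test 20 of these were lower in DRG, where 28.1% of all tested genes were. The number higher was 0 (0 at an unadjusted p under 0.05, and 0 with DESeq2 or limma voom), where 27.8% of all tested genes were. The largest difference among them was that of cacng4b, an auxiliary subunit of AMPA receptors, at 1.03, 3.28 and 1.67 CPM in DRG, against 101, 79.4 and 80.0 CPM in the cord (log2 fold change -5.45 ± 0.37 SE, adjusted p = 1.8e-05).

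Further synaptic adhesion genes were split. Of 23 that matched, 12 were lower in DRG, 7 higher and the rest not called, with a median log2 fold change of -0.82. Over all tested genes, 28.1% were called lower in DRG and 27.8% higher. The phagocytic and synaptic receptor adgrb1a had 14.4, 16.0 and 15.4 CPM in DRG, against 134, 139 and 138 CPM in the cord (log2 fold change -3.16 ± 0.13 SE). The opposite held for ntng1a, a membrane-anchored netrin of axons, with 107, 77.0 and 134 CPM in DRG, against 4.53, 6.36 and 6.40 CPM in the cord (log2 fold change 4.20 ± 0.26 SE, adjusted p = 1.2e-05 in edgeR's test).

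Of 5 matched genes listed for the node and paranode, 2 were higher in DRG, 2 lower and kcnq3 was not called. Over all tested genes, 27.8% were called higher and 28.1% lower. The gene mpz, lower in DRG, was also on the list of myelinating glia, and without it ank3b alone was lower. The gene gldn encodes gliomedin, which mammalian Schwann cells secrete to gather neurofascin and NrCAM at peripheral nodes. It had 96.8, 163 and 72.0 CPM in DRG, against 10.6, 5.77 and 9.27 CPM in the cord (log2 fold change 3.69 ± 0.36 SE, adjusted p = 9.5e-05 in edgeR's test). The paranodal partner of Caspr, epb41l3a (protein 4.1B), named here after its values were seen, was higher in DRG as well, at 978, 554 and 1057 CPM in DRG, against 409, 388 and 384 CPM in the cord (log2 fold change 1.13 ± 0.24 SE). Both had DRG libraries above every spinal cord library. The other two called genes, ank3b and mpz, named here after their values were seen as well, were lower in DRG. For ank3b, which encodes the node scaffold ankyrin-G, the levels were 242, 181 and 316 CPM in DRG, against 426, 484 and 480.4 CPM in the cord (log2 fold change -0.91 ± 0.21 SE, adjusted p = 0.00674 in edgeR's test). For mpz, which encodes a myelin protein of mammalian Schwann cells, they were 1903, 3944 and 2086 CPM in DRG, against 26719, 35534 and 32244 CPM in the cord (log2 fold change -3.57 ± 0.35 SE). Each DRG library of ank3b and mpz was below every spinal cord library.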

How the data were processed

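A single table of raw counts, 1 whole number for each gene and library, is what the authors deposited. Per the labels' protocols, libraries were polyA-selected, stranded and read from both ends. The submitters' processing notes list Trimmomatic, HISAT2 2.2.0, SAMtools, featureCounts and edgeR 4.4; options, strand setting, genome build and annotation are not given in the sources used here, so no coordinates are printed, and counts of near-identical paralogs and overlapping genes are uncertain. All 34 symbols are in the RefSeq gene list of assembly Leri_hhj_1, which gave names and neighbours.

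Left out were 24 rows without a gene name, with 1.96% ± 0.0684 of the counts of DRG libraries and 1.22% ± 0.199 of those of spinal cord libraries (SD over n = 3 libraries each). Counts were tested with edgeR 4.0.16 in R 4.3.3: filterByExpr, TMM, glmQLFit and glmQLFTest on all 16112 genes kept, a single term for tissue, Benjamini-Hochberg adjusted p under 0.05. CPM use the sum over tested genes, multiplied by the TMM factor, as library size, so that 3 counts stand at 0.136 to 0.176 CPM in DRG and 0.0764 to 0.0888 CPM in spinal cord. The SE is the size of the log2 fold change divided by the square root of F.

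The genes and lists were chosen with earlier results of these data known. Genes given in every library are, per family and direction, up to 2 called genes with the largest log2 fold change, the same sign in all 3 pools and a mean of 5 CPM or more in the higher tissue, and the most abundant gene; others were added for their relation to these. List symbols were matched alone or with the suffix a or b.

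The labels list the pool number as a batch of both tissues, which pairs the libraries by their labels. Across 16112 genes, same-pool deviations from the tissue means correlated at 0.48, -0.24 and -0.18 in pools 815, 816 and 818. The labels do not say whether the tissues of a pool came from the same embryos, and p-values measure the spread between pools. Alternatives were other scalings, DESeq2 1.42.0, limma 3.58.1 with voom, other filters, the replicate block and leaving out each library. Figures were drawn with matplotlib 3.10.9.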

Additional observations from a re-analysis of the deposited data

Results flagged for a closer look

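Counts outside the comparison were present in the 24 rows without a gene name, at a mean of 1.96% of the counts of DRG libraries, against 1.22% of those of spinal cord libraries; they hold no gene of the set.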

How the results depend on the processing

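Under 15 alternatives, 18 of the 34 genes kept direction and call, and so did cbln1 in the 14 that gave it a value (at least 10 counts in every library leaves it out). The scaling decided the genes higher in DRG: with library sizes alone the number higher in DRG was 0 (0 at an unadjusted p under 0.05 in edgeR's test) and that lower in DRG was 28. The directions that turned with library sizes alone were those of flrt3 (log2 fold change -0.87), lrfn5a (-0.68), slitrk4 (-0.69), slitrk2 (-0.21) and cntn2 (-0.34). Of these, flrt3, lrfn5a and slitrk4 passed as lower in DRG (adjusted p = 0.013, 0.0104 and 0.0339 in edgeR's test). The gene dlgap5 passed as lower there too (-1.83, adjusted p = 0.0147 in the same test). With library sizes that leave out the mitochondrial protein-coding genes, 4 genes were higher and 24 lower, and flrt3, lrfn5a and slitrk4 turned to -0.44, -0.24 and -0.25. The median log2 fold change of all tested genes was -0.549 there, and 9805 of all genes were called in either direction. In that setting slitrk2 and cntn2 did not pass (0.22 and 0.089). There adgrl3.1 and slitrk6 passed as lower in DRG (-0.69 and -1.26, adjusted p = 0.0167 and 0.0108 in edgeR's test). Both passed as lower with library sizes alone too (-1.12 and -1.74). With DESeq2 lrfn5a passed (adjusted p = 0.0248). The value of flrt3 was also negative with at least 10 counts in every library (-0.017), without DRG replicate 3 (-0.090) and without spinal cord replicate 3 (-0.0072), and ranged from -0.090 to 0.16 over the fits without 1 library. Leaving out 1 library gave 19 to 24 genes lower and 5 to 6 higher in DRG, and 7416 to 9534 calls over all genes. With the replicate block, 22 genes were lower (26.4% of all tested genes) and 6 higher (25.9%), and all 34 kept call and direction; over all genes 8425 were called, against 9002 without the block. The cause of these changes was not tested. With 3 pools per tissue, small differences such as those of slitrk4, lrfn5a and flrt3 on the TMM scale may go undetected at this depth and spread.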
